A study of Mus musculus with 145 samples.

Results

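The potassium channel genes are described here across immune cells, thymic epithelium and lymph node stroma sorted from mice. They were taken as every gene whose array probe set carries 1 gene symbol beginning with Kcn, 1 or more letters and a digit. That gave 91 genes, measured by 94 probe sets, among 19752 genes with a single symbol on 24922 probe sets. Where a gene had several probe sets, the one with the highest mean log2 value was used. 3 of the 91 symbols name noncoding RNAs beside a channel gene (Kcnd3os, Kcnmb4os1 and Kcnmb4os2), and the others name channel subunits or their partners.

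A potassium channel lets potassium leave the cell and so holds the inside of the membrane negative. In lymphocytes and mast cells this negative voltage drives calcium in through Orai channels after a receptor is engaged, which is why a voltage-gated channel (Kcna3) and a calcium-activated one (Kcnn4) have long been studied in T cells. The family falls into voltage-gated pores, modifier subunits that make no channel alone, calcium- or sodium-activated pores, inward rectifiers, tandem-pore channels that leak at rest, and auxiliary subunits that set the behaviour of a pore.

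The series holds 145 arrays in 65 groups, of which 12 groups have 1 array, 28 have 2, 23 have 3 and 2 have 4. The unit is the linear array intensity. Array medians lay between 112 and 147, the highest value on an array between 14147 and 25426, and the number of arrays limits the precision. The groups compared were wild type and untreated except where stated, and their cells came from C57BL/6 or B6 mice wherever the labels give a strain and no other is named. Naive CD4 and CD8 T cells of the lymph node (6 weeks old) were cultured with beads carrying antibodies to CD3 and CD28 for 1, 5, 24, 48 or 96 h or kept as controls (CTR). Spleen CD4 T cells (6 weeks) were effector or memory cells in titles that carry LCMV with d8 or d30, or naive cells whose titles carry neither. Spleen CD8 T cells (mice 45 days old) carried LisOVA in their titles. They were labelled Tbet+ or Tbet- with OT1 on d6, or KLRG1+ CD127- and KLRG1- CD127+ on d8. Thymus groups were double-positive thymocytes with or without CD69 (6 weeks), and gamma delta T cells with Vg4 in their titles and high or low CD24 (e17, with an age label of 5 weeks). Thymic epithelium was cortical (CEChi) or medullary (MEChi, MEClo) at 8 weeks, together with medullary cells sorted by GFP at 5 weeks, some labelled KO without the gene being named. Lymph node stroma (6 weeks) comprised lymphatic endothelium (LEC), fibroblastic reticular cells (FRC) and double-negative cells (DN), each also with CFA and d6 in the title of further arrays, which enter no comparison. Macrophages came from lung and liver (6 weeks) and from the peritoneal cavity of mice of mixed background labelled Gata6ko or ctrl, whose age label is 9 without a unit. Mast cells, eosinophils and neutrophils were compared among themselves at 6 to 7 weeks or 43 to 50 days. Other groups gave values but entered no comparison. Among them were fat macrophages (45 to 52 days), a fat eosinophil array (45 days), Sca1+ cortical epithelium (8 weeks) and MEClo at 5 weeks. Also among them were blood Ly6C+ MHCII+ monocytes, a basophil array and an FRC array of mixed background labelled Cadherin 11 WT (all 6 weeks). The labels do not state whether replicate arrays hold different animals, and each p-value then measures only the spread between arrays, which may be technical. In these bulk samples fewer cells of a type and less RNA per cell cannot be told apart.

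Some arrays went against their labels. Tbx21, which encodes T-bet, was 292 ± 14 in the Tbet- arrays and 3176 ± 249 in the Tbet+ arrays (SD, n = 3 each), and Klrg1 was 3936 ± 147 (SD, n = 2) in KLRG1+ against 149 ± 12.3 (SD, n = 3) in KLRG1- cells, as labelled. Gata6 was no lower in the arrays labelled Gata6ko, at 2911 ± 299.6 against 2868 ± 336 (SD, n = 3 each). Whether its probes lie in the deleted part was not tested. Of 133 arrays labelled male, 17 had Xist, the RNA of the inactive X chromosome, at or above 500, and the others were at most 58.0. The 17 included all 6 Tbet+ and Tbet- arrays and all 5 Vg4 arrays, and 3 of the 5 KLRG1+ and KLRG1- arrays. The Tbet- arrays were sorted as CD45.1+ and the Tbet+ arrays as CD45.2+ CD45.1-, so the Tbet label and the CD45 marker cannot be told apart. The single fat eosinophil array stood apart: it was the highest group for 21 of the 91 channel genes and for 11.5% of all genes, and it entered no comparison.

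For 5 genes that the results turn on, the bases just upstream of the start site are shown. These are Kcna2, Kcnj10 and Kcnj16, highest in liver macrophages, Kcne3, highest in mast cells, and Kcnn4, highest in stimulated T cells. The sequences are RefSeq promoter windows of build GRCm38.p6, all on the plus strand. Each gives the 250 bases before the annotated start at chr3:107101317-107101566 for Kcna2, chr1:172340960-172341209 for Kcnj10, chr11:110967783-110968032 for Kcnj16, chr7:100176420-100176669 for Kcne3 and chr7:24370013-24370262 for Kcnn4. Kcnj16 has 4 such windows and Kcne3 has 2, of which the first listed is shown, and the other genes have 1. Capitals mark letters of a searched motif on either strand.
Kcna2: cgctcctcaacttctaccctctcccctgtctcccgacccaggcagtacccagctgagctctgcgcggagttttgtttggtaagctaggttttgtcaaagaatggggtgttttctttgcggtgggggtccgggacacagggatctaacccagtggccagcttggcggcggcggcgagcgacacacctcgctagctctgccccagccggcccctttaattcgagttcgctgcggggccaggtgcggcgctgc
Kcnj10: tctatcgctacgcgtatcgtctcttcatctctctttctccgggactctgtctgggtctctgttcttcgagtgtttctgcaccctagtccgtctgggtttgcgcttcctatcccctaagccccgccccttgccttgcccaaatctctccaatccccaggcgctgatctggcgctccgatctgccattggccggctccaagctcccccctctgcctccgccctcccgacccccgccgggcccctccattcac
Kcnj16: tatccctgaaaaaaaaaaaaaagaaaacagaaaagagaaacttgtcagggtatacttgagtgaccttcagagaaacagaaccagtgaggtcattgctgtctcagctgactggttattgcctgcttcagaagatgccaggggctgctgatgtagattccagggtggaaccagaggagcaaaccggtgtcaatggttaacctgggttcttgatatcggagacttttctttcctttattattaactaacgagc
Kcne3: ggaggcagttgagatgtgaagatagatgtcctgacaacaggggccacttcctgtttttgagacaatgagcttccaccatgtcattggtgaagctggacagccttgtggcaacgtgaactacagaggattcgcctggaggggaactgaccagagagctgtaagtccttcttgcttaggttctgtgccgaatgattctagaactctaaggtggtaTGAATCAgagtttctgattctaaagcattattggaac
Kcnn4: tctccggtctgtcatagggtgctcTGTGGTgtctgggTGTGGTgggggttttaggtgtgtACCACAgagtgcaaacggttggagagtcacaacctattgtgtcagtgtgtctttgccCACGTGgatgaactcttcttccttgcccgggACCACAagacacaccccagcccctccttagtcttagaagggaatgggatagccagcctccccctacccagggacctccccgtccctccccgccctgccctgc

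A set of 5 motifs was searched on both strands. The AP-1 motif was spelled TGANTCA. The GATA motif was spelled AGATAA. The E-box motif was spelled CACGTG. The TATA motif was spelled TATAAA. The Runx motif was spelled TGTGGT. The Kcnn4 window held the Runx letters at 4 places, beginning 226, 213, 190 and 102 bases before the start, and the E-box letters at 133. The Kcne3 window held the AP-1 letters, beginning 37 bases before the start. The other 3 windows shown held none of the 5 motifs, which says only that these letters are not in those windows. Of the 3 Kcnj16 windows not shown, 1 held the GATA and the TATA letters, and the second Kcne3 window held none. Of all 32851 promoter windows of this length, 14% held the Runx letters, 6.02% the E-box letters, 6.75% the AP-1 letters, 9.99% the GATA letters and 12.4% the TATA letters. Windows were found for 69 of the 91 channel genes. Of these, 10 held the Runx letters, 5 the E-box, 4 the AP-1, 3 the GATA and 3 the TATA letters in at least 1 window. No motif overlapped another in the windows shown, and a match is a description of the sequence, not a bound site.

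A group level is the mean of the log2 values of a group, returned to the linear scale. In 31 of 91 channel genes (34.1%) the highest group level was at least 4-fold above the gene's own median group, against 5546 of 19752 genes (28.1%), a share near that of all genes. In 27 of the 31 the median group lay below the median of all array values, so these folds are taken over dim levels. At least 1 group of 69 of the 91 (75.8%) reached the median of all array values, 126, against 78.8% of all genes. By kind, the 4-fold peak was found in 7 of 16 auxiliary subunits, 7 of 15 inward rectifiers and 5 of 14 tandem-pore channels. It was also found in 7 of 25 voltage-gated pores, 1 of 10 modifiers and none of the 3 noncoding RNAs. Of 8 genes with Kcnma, Kcnn, Kcnt or Kcnu symbols, mostly calcium- or sodium-activated pores, 4 had it. The gene nearest above the 4-fold line was Kcnh8 at 4.104-fold, and the nearest below was Kcnj5 at 3.90-fold. The other 60 genes had peaks from 1.31-fold (Kcnj6) upward. In 22 genes no group reached the median of all values, among them Kcna4, Kcnc2, Kcnh5, Kcnn2, Kcnj6 and Kcne1.

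**Figure D1:**
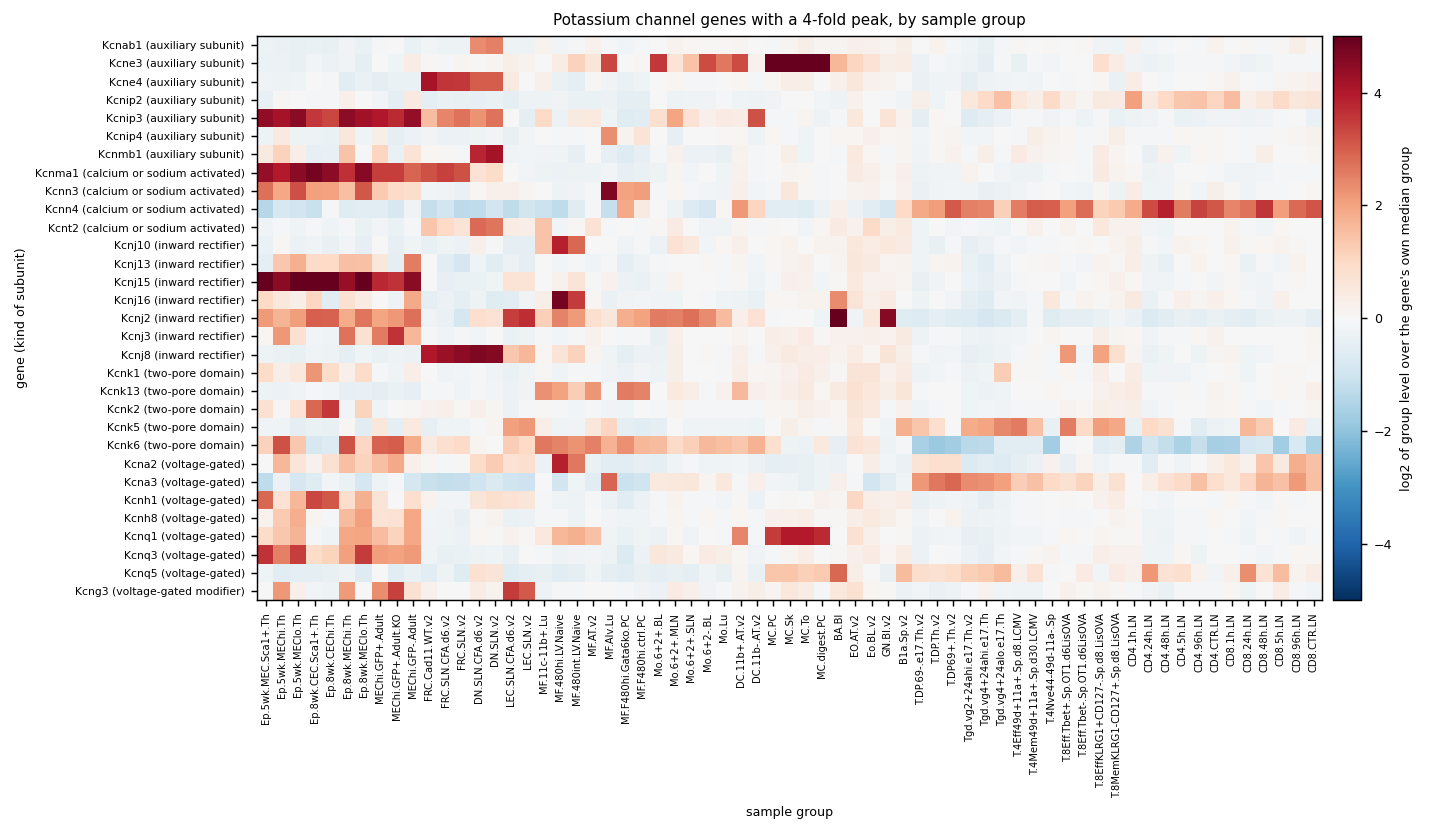
Each row is 1 of the 31 channel genes whose highest group is at least 4-fold above its own median group, and each column is 1 of the 65 sample groups. Colour gives the log2 of the group level over the gene's median group. Kcne3 is high in the mast cell groups and Kcnj15 in the thymic epithelial groups.

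Kcnn4, the intermediate-conductance calcium-activated pore, was highest in CD4 cells after 48 h of stimulation, at 3438 and 3253, and next in CD8 cells at 48 h, at 2860 and 2598. Its level was at least 4-fold above its own median group of 227 in 21 groups. Kcna3, the voltage-gated channel of lymphocytes, was 2261 (2164 to 2328, n = 3) in CD69+ double-positive thymocytes and 1969 (1888 to 2099, n = 3) in CD69- ones. It was also 1782 to 2964 in the 3 alveolar macrophage arrays. Across the 65 group levels Kcna3 correlated with Kcnn4 (Pearson's r = 0.687) and with Kcnab2, a cytoplasmic beta subunit of the Kv1 family (r = 0.682), and its r with Kcna2 was -0.125. These correlations are descriptions over groups that share cell types.

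Within 1 h of stimulation several of these genes were lower and one was higher. In CD4 cells 4 of the 28 channel genes that passed the filter on low values were called at a limma adjusted p under 0.05, where 20.1% of all probe sets tested were called. In CD8 cells 5 were called, against 14.5%. Kcnn4 was 2450 and 1553 in CD4 controls and 956 and 702 at 1 h, so the arrays did not overlap. Its log2 difference was -1.25 ± 0.20 (SE), with an adjusted p of 5e-04. In CD8 cells it fell by 0.69 ± 0.20 (SE) on the log2 scale (adjusted p = 0.03), from 1902 and 2072 to 1304 and 1157. Kcna3 fell by 0.85 ± 0.28 (SE) in CD4 cells (adjusted p = 0.044) and by 0.96 ± 0.28 (SE) in CD8 cells (adjusted p = 0.03). Kcnab2 fell by 0.89 ± 0.16 (SE) in CD4 cells (adjusted p = 0.0012) and by 0.68 ± 0.16 (SE) in CD8 cells (adjusted p = 0.01). Kcna2, another voltage-gated pore of the same subfamily, was the further CD8 gene called, falling by 0.94 ± 0.13 (SE) with an adjusted p of 0.00017. When any 1 of the 4 CD8 arrays was left out, 2 CD8 genes were called.

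The gene that rose at 1 h was Kcnip2, a calcium-binding partner of Kv4 channels. It was 189 and 130 in CD4 controls and 353 and 270 at 1 h, a log2 difference of 0.98 ± 0.16 (SE) with an adjusted p of 0.00066. In CD8 cells it went from 109 and 121 to 217 and 215, a log2 difference of 0.91 ± 0.16 (SE) with an adjusted p of 0.0015. In both cell types every 1 h array lay above every control array. By 24 h the CD4 arrays had 95.6 and 106, below both controls (adjusted p = 0.004).

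At 5 h 4 channel genes were called in CD4 cells, against 31.2% of all probe sets, and 7 in CD8 cells, against 28.9%. Kcnq5, a pore of the slow, subthreshold type known from neurons, was 202 and 167 in CD4 cells against 131 and 71.9 in controls (log2 difference 0.92 ± 0.24, SE, adjusted p = 0.0088). In CD8 cells it was 316 and 298 against 135 and 138, higher by 1.17 ± 0.24 on the log2 scale (SE, adjusted p = 0.0018). Kcnab2 was still low, at 635 and 614 in CD4 cells (log2 difference -0.87 ± 0.16, SE, adjusted p = 0.00061) and 608 and 735 in CD8 cells (-1.09 ± 0.16, SE, adjusted p = 1e-04). The remaining CD4 calls were Kcna2 and Kcnh3, both lower. Kcna2 was 351 and 289.8 in CD8 cells against 613 and 684 (-1.02 ± 0.13, SE, adjusted p = 2.2e-05), and Kcnn4 was 1085 and 858 against 1902 and 2072 (-1.04 ± 0.20, SE, adjusted p = 0.00098). The remaining CD8 calls were Kcnc1, Kcnh4 and Kcnk5, higher by 0.39 to 0.42 on the log2 scale. The CD4 count was 1 without the first 5 h array and 2 without the second, and the CD8 count was 4 without the second 5 h or the second control array. The 3 measured B cell markers, of which 1 exceeded the median of all values, summed to 241 to 256 at 5 h and 521 to 568 in controls in CD8 cells, and their part in the result was not tested. Of these markers Cd79b alone had group levels of 178 and 465.

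At 24 h 12 of the 28 channel genes were called in CD4 cells and 8 in CD8 cells, where 53.4% and 43.3% of all probe sets were called. In CD4 cells 3 were higher and 9 lower, against 33.1% of all probe sets higher and 20.2% lower. In CD8 cells 3 were higher and 5 lower, against 25.3% higher and 18% lower. The same 3 genes, Kcnq5, Kcnk5 and Kcnk6, were the ones called higher in both cell types. Kcnq5 reached 626 and 371 in CD4 cells, 2.31 ± 0.24 above control on the log2 scale (SE, adjusted p = 1.2e-06), and 568 and 505 in CD8 cells, 1.97 ± 0.24 above control (SE, adjusted p = 8.5e-06). At 48 h Kcnq5 was lower again, at 183 and 170 in CD4 and 162 and 188 in CD8 cells. Without the first CD4 control array 7 genes were called in CD4 cells at 24 h, and without the second 24 h array 5 in CD8 cells. The 4 endothelial markers, of which 1 exceeded the median of all values, summed to 609 to 694 at 24 h and 1391 to 1650.4 in controls in CD4 cells, and their part in the result was not tested. Of these markers Pecam1 alone had group levels of 437 and 1267.

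Kcnk5, an acid-sensitive tandem-pore channel, was 67.0 and 79.7 in CD4 controls and 178 and 176 at 24 h (log2 difference 1.28 ± 0.13, SE, adjusted p = 7.9e-07). In CD8 cells it went from 71.7 and 68.6 to 294 and 265 (1.99 ± 0.13, SE, adjusted p = 9e-09). It remained above control at 48 h in both, at 142 and 161 and at 221 and 207. Kcnk6, a tandem-pore channel found mostly inside cells, was 173 and 176 against 105 and 101 in CD4 cells at 24 h (0.76 ± 0.15, SE, adjusted p = 0.00041). In CD8 cells it was 176 and 191 against 121 and 97.3 (0.75 ± 0.15, SE, adjusted p = 0.00053). The stimulated arrays did not overlap the controls for either gene.

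The clearest fall at 24 h was that of Kcna2 in CD8 cells. Its control level was 613 and 684 in CD8 cells and 292 and 266 in CD4 cells. At 24 h CD8 cells had 266 and 277, a log2 difference of -1.25 ± 0.13 (SE, adjusted p = 1.2e-06), and CD4 cells had 166 and 160 (-0.78 ± 0.13, SE, adjusted p = 0.00012). By 48 h the CD8 arrays, at 670 and 574, overlapped the controls again. A second probe set of Kcna2 also fell in CD8 cells at 24 h (-0.68 ± 0.19, SE, adjusted p = 0.0097). In CD4 cells Kcnip2, Kcnmb3, Kcnmb4, Kcns3, Kcnh2, Kcng1, Kcnh3 and Kcnc1 also fell by 0.33 to 0.64 on the log2 scale. In CD8 cells Kcnc1, Kcnmb3, Kcnmb4 and Kcnh3 fell by 0.36 to 0.60. Quantile normalization moved the median of all log2 differences by -0.21 in CD4 and -0.10 in CD8 cells at 24 h. None of the 28 channel genes was called for a difference between the CD8 and CD4 responses at 24 h (limma interaction, 0.659% of all probe sets called), and 3 had an unadjusted p under 0.05.

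At 48 h 6 channel genes were called in CD4 cells (34.5% of all probe sets) and 2 in CD8 cells (25%). Kcnn4 was higher in CD4 cells at 3438 and 3253 against 2450 and 1553 (log2 difference 0.78 ± 0.20, SE, adjusted p = 0.0077). The CD4 count at 48 h was 1 gene without the second control array, 2 without the first 48 h array and 3 without the second. Both CD8 calls were the tandem-pore genes Kcnk5 (1.61 ± 0.13, SE, adjusted p = 1.3e-07) and Kcnk6 (0.82 ± 0.15, SE, adjusted p = 0.00055). The single 96 h arrays had Kcnk5 at 60.3 in CD4 and 117 in CD8 cells, and Kcna3 at 855 and 1349. As deposited, 62.1% of all calls at 24 h in CD4 cells were higher, and 49.2% after quantile normalization. At 48 h the CD4 share was 71.0% and 48.2%.

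**Figure D2:**
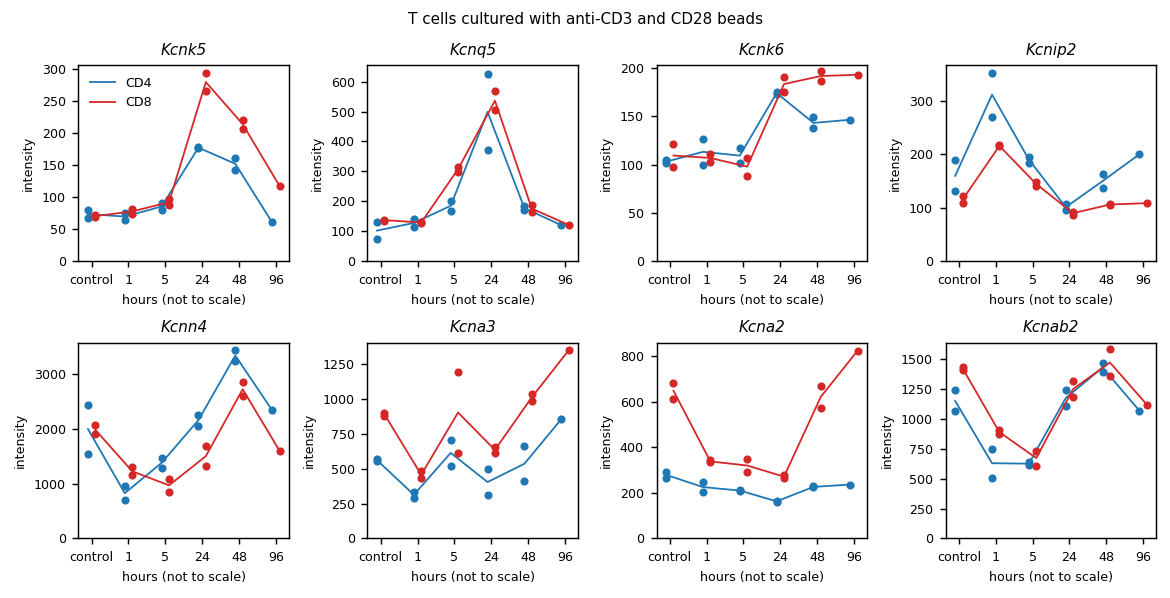
Array intensity (vertical axis, from 0) of 8 channel genes in CD4 (blue) and CD8 (red) T cells against hours of culture with anti-CD3 and CD28 beads, with times evenly spaced and not to scale. Points are arrays and lines join the means. Kcnq5 peaks at 24 h, Kcnip2 at 1 h, and Kcnn4 dips early and is highest at 48 h.

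A list of calcium entry and membrane potential genes was measured beside the channels. It held Orai and Stim genes, calcium pumps, inositol trisphosphate receptors, other cation channels and regulators, of which 21 of 25 had a probe set and 20 passed the filter. In CD4 cells at 24 h 2 rose and 11 fell, where 33.1% of all probe sets rose and 20.2% fell. In CD8 cells 1 rose and 12 fell, where 25.3% rose and 18% fell. No test of the list was made. Orai2, a pore of the store-operated calcium channel, fell by 1.82 ± 0.18 (SE) on the log2 scale in CD4 cells, from a mean of 1527 to 431 (adjusted p = 4.3e-07). Itpr2, a receptor that releases stored calcium, fell by 1.51 ± 0.17 (SE) in CD4 cells, from 1725 to 596 (adjusted p = 3e-06). Atp2a2, the calcium pump of the endoplasmic reticulum, rose by 1.33 ± 0.16 (SE) in CD4 cells, from 1083 to 2706 (adjusted p = 5.6e-06). The median log2 difference over the 28 channel genes was -0.25 in CD4 and -0.19 in CD8 cells, beside 0.041 and -0.0287 over all probe sets tested.

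In CD4 effector cells from titles with LCMV d8, Kcnk5 stood out again. It was 486 and 614 against 70.5 and 69.5 in naive cells, with no overlap, a log2 difference of 2.96 ± 0.14 (SE) and an adjusted p of 1.4e-06. Kcnk6 was 215 and 239 against 106 and 88.9 (1.22 ± 0.14, SE, adjusted p = 0.00021). In all, 7 of the 23 channel genes tested were called, where 32.2% of all probe sets were. Of these, 3 were higher (18.7% of all) and 4 lower (13.5%). The third higher gene was Kcnab2 (0.53 ± 0.13, SE, adjusted p = 0.015), and the lower ones were Kcna2, Kcnh2, Kcnmb4 and Kcnip2. Without the second effector array 4 genes were called. The 4 NK cell markers, of which 2 exceeded the median of all values in effector and 1 in naive cells, summed to 9508 to 9712 and 278 to 305. The 4 dendritic cell markers, of which 1 exceeded it in each group, summed to 1029 to 1329 and 6627 to 6691. Of the NK cell list Nkg7 alone had group levels of 9224 and 85.5, and of the dendritic cell list Ccr7 alone had 944 and 6404. The part of these lists in the result was not tested. Between memory (d30) and effector cells 1 channel gene was called, against 8.6% of all probe sets. It was Kcnk5, lower in memory at 233 and 259 (-1.15 ± 0.14, SE, adjusted p = 0.0014). Of the calcium entry list 7 genes rose and 5 fell from naive to effector cells, and the largest was Atp1b1, a sodium pump subunit, from a mean of 2170 to 84.2 (-4.69 ± 0.13, SE, adjusted p = 9e-08).

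In the Tbet- against Tbet+ effectors, 5 of 22 channel genes were called, against 9.68% of all probe sets, 3 higher (5.73% of all) and 2 lower (3.96%). Kcnj8, the pore of an ATP-sensitive channel known from vascular muscle, was 85.8, 76.8 and 70.3 in Tbet- and 261, 567 and 373 in Tbet+ arrays. Its log2 difference was -2.30 ± 0.23 (SE, adjusted p = 0.00017). Kcnk5 was 167, 179 and 183 in Tbet- and 555, 448 and 586 in Tbet+ arrays, a log2 difference of -1.58 ± 0.13 (SE, adjusted p = 3.1e-05). For both genes the groups did not overlap. Kcnj8 passed the filter on low values only through the Tbet+ arrays, and its adjusted p takes no account of this. Kcnn4 (0.75 ± 0.13, SE, adjusted p = 0.0053), Kcna2 (0.52 ± 0.13, SE, adjusted p = 0.03) and Kcnq5 (0.43 ± 0.11, SE, adjusted p = 0.043) were higher in Tbet- arrays. The count was 3 when the first array of either group or the second Tbet- array was left out. Of the calcium entry list 4 genes rose (Atp2a2, Hvcn1, P2rx4 and P2rx7) and none fell, although no test of the list was made. The summed level of the measured B cell markers (3 of 4, of which 1 exceeded the median of all values) was 1570 to 1750 in Tbet- and 507 to 816 in Tbet+ arrays. That of the 4 dendritic cell markers, of which 1 exceeded it, was 2752 to 3343 and 794 to 892. That of the 4 endothelial markers, of which 1 exceeded it, was 1095 to 1138 and 501 to 539. Single genes of these 3 lists, Cd79b, Ccr7 and Pecam1, had group levels of 1576, 2741 and 867 in Tbet- arrays. In Tbet+ arrays they had 550, 605 and 272. The part of these lists in the result was not tested. Between KLRG1+ and KLRG1- cells none of 24 channel genes was called by limma, against 0.382% of all probe sets, and 2 had an unadjusted p under 0.05.

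Kcnma1, the large-conductance calcium- and voltage-activated pore, had 2 probe sets that gave different pictures. The one chosen by the highest mean lists 17 RefSeq transcripts and was 41.5, 40.0 and 44.0 in Tbet- arrays and 43.7, 44.9 and 40.8 in Tbet+ arrays, values that overlapped. The log2 difference was -0.04 ± 0.11 (SE). The other probe set lists 0 RefSeq transcripts and 4 GenBank records. It was 6453, 6769 and 7560 in Tbet- arrays and 34.5, 35.2 and 34.6 in Tbet+ arrays, a log2 difference of 7.63, given without a test because the gene was chosen for this difference. It was also 4359 and 4515 in the KLRG1+ arrays and 5161 to 6462 in the KLRG1- arrays, whose labels name no Tbet change.

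The 8 arrays in which the other Kcnma1 probe set was at or above 1000 were the 8 arrays with CD45.1+ in their sort markers, so its level moved with that label in all 8. In the remaining 137 arrays it lay between 23.3 and 128, with a median of 37.3. Over the 65 groups the 2 probe sets correlated at r = -0.0198. The 10 single-symbol probe sets with the nearest numbers to the chosen Kcnma1 set all name genes of chromosome 14, where RefSeq places Kcnma1, and the 10 nearest to the other set all name genes of chromosome 8. What the other probe set measures was not tested. The 5 genes most like it over 65 groups were Heatr9 (r = 0.698), Klrc1 (0.669), Klrc3 (0.668), Klrb1c (0.655) and Rom1 (0.652).

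By the chosen probe set, Kcnma1 was a gene of thymic epithelium and fibroblastic stroma. It was 1127 and 1296 in Sca1+ cortical epithelium at 8 weeks, 971 and 1081 in MEClo at 8 weeks, 882 and 1123 in MEClo at 5 weeks and 919 and 1020 in CEChi. The last 3 of these overlapped one another, whereas MEChi at 8 weeks, at 544 and 558, lay below all of them. FRC had 456 and 335. The 5 most similar genes over 65 groups were Clip4 (r = 0.984), Hhip (0.976), Dsc2 (0.965), Naaladl2 (0.962) and Adgrg2 (0.962). Kcnmb1, the beta subunit that tunes Kcnma1 channels in smooth muscle, followed it little (r = 0.174): it was 693 and 1844 in DN stroma and 847 and 940 in DN stroma on d6 with CFA in the title.

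**Figure D3:**
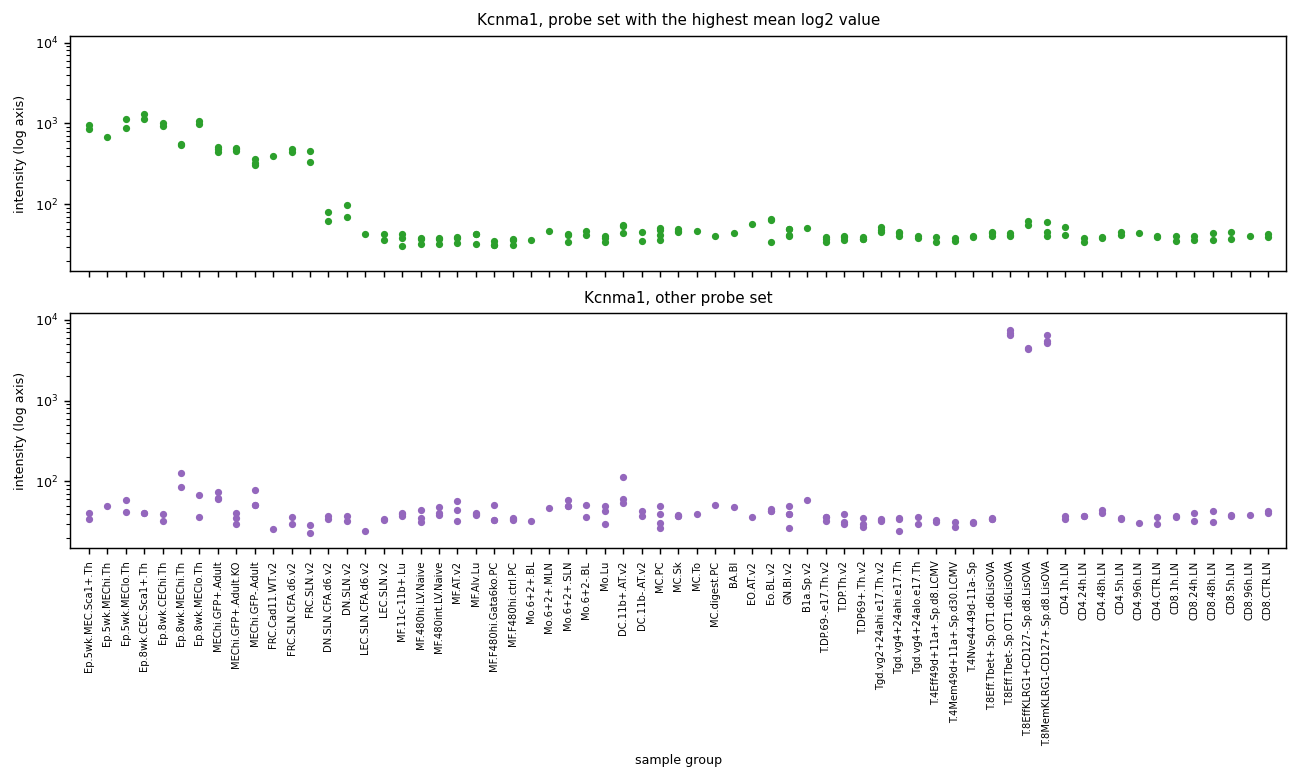
Array intensity on a log axis of both Kcnma1 probe sets in every array, by sample group. The upper panel (chosen set) is high in thymic epithelium and fibroblastic stroma, and the lower panel (other set) is at or above 4359 in the 8 arrays sorted as CD45.1+ and at most 128 elsewhere.

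Thymocytes were compared by CD69 and gamma delta T cells by CD24. Between CD69+ and CD69- double-positive thymocytes 7 of 21 channel genes were called, against 37.6% of all probe sets. Kcnmb4, a beta subunit of the large-conductance channel, was 279, 304 and 292 in CD69+ and 122, 148 and 129 in CD69- cells (log2 difference 1.14 ± 0.10, SE, adjusted p = 5.3e-07). Kcnn4 rose from a mean of 976 to 1909 (0.96 ± 0.14, SE, adjusted p = 6.2e-05), and Kcnk5 fell from 161 to 87.4 (-0.89 ± 0.13, SE, adjusted p = 6.4e-05). Kcnmb4os2, named as the antisense partner of Kcnmb4, rose too, by 0.35 ± 0.11 (SE, adjusted p = 0.022). The count was 4 without the second array of either group. The 4 dendritic cell markers, of which 1 exceeded the median of all values, summed to 1667 to 2201 in CD69+ and 369 to 461 in CD69- arrays. The 4 NK cell markers, of which 1 exceeded it in CD69+ and 0 in CD69- arrays, summed to 653 to 950.2 and 141 to 178. Of the dendritic cell list Ccr7 alone had group levels of 1645 and 175, and of the NK cell list Nkg7 alone had 636 and 64.1. The part of these lists in the result was not tested. Between Vg4 CD24lo and CD24hi cells 6 of 21 were called, against 21.8%. Kcnk1, a weakly rectifying tandem-pore channel, was 209 and 222 in CD24lo and 92.8, 75.8 and 72.6 in CD24hi arrays (1.43 ± 0.11, SE, adjusted p = 4e-06). Kcnn4 was lower in CD24lo arrays at 498 and 531 against 1347, 1225 and 1174 (-1.28 ± 0.09, SE, adjusted p = 1.8e-06). Without either CD24lo array 3 genes were called. The 4 mast cell markers, of which 2 exceeded the median of all values, summed to 4497 to 4917 in the CD24hi and 481 to 532 in the CD24lo arrays. The dendritic cell and endothelial lists were also at least 2-fold higher in every CD24hi array. Of these, Ccr7 alone had group levels of 1543 in CD24hi and 471 in CD24lo arrays, and Pecam1 alone had 920 and 287. The part of these lists in the result was not tested.

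In the thymic epithelial groups 6 to 8 of the 91 channel genes were at least 4-fold above their own median group, and in the DN stroma groups 6 of 91. Of all genes, 4.17% to 6.54% were so in the epithelial groups. In DN stroma 5.23% were, and 5.12% with CFA in the title. Kcnj15, an inward rectifier of secretory and transporting epithelia, was 3180 and 4786 in Sca1+ cortical epithelium and at most 151 in every array of the lymph node stroma groups. Between cortical CEChi and medullary MEChi cells at 8 weeks 24 of 36 channel genes were called, against 47.9% of all probe sets. Kcnk2, a stretch- and lipid-sensitive tandem-pore channel, was 899 and 830 in CEChi and 74.4 and 61.6 in MEChi (log2 difference 3.67 ± 0.15, SE, adjusted p = 1.6e-08). Kcnh1, a voltage-gated ether-a-go-go pore, was 559 and 719 against 133 and 137 (2.23 ± 0.19, SE, adjusted p = 2.2e-06). Kcna1, a voltage-gated pore, was 173 and 246 against 88.2 and 77.3 (1.32 ± 0.26, SE, adjusted p = 0.0012), and Kcnj2, an inward rectifier, 243 and 386 against 150.1 and 136 (1.10 ± 0.33, SE, adjusted p = 0.018). The CEChi and MEChi arrays did not overlap for these 4 genes.

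The medullary side was led by Kcnk6, at 2652 and 3297 in MEChi and 173 and 253 in CEChi (log2 difference -3.82 ± 0.21 for CEChi over MEChi, SE, adjusted p = 8.7e-08). Kcnj3, a pore of G protein-gated channels, was 462 and 372 in MEChi and 53.7 and 55.5 in CEChi (-2.92 ± 0.18, SE, adjusted p = 1.5e-07). Its partner Kcnj5 was lower in CEChi too (-1.68 ± 0.16, SE, adjusted p = 5.2e-06), and the pair had r = 0.878 over the 65 groups. Kcng3, a modifier that forms no channel alone, was 243 and 352 in MEChi and 57.4 and 52.8 in CEChi (-2.41 ± 0.19, SE, adjusted p = 1e-06). Kcnq1, a voltage-gated pore of heart and epithelia, was 379 and 477 against 94.9 and 97.4 (-2.14 ± 0.24, SE, adjusted p = 1.7e-05). Kcnip3, Kcnmb1, Kcnh8 and Kcnh3 were also lower in CEChi, by 1.10 to 1.82 on the log2 scale.

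Within the medulla, 16 of 36 channel genes were called between MEChi and MEClo, against 38.2%. Kcnk6 was 630 and 719, Kcng3 76.0 and 60.1, and Kcnj3 108 and 106 in MEClo, so the MEChi arrays were above MEClo for each. The log2 differences were 2.14 ± 0.21 for Kcnk6, 2.11 ± 0.19 for Kcng3 and 1.95 ± 0.18 for Kcnj3 (SE, adjusted p = 1.3e-05, 5.2e-06 and 5.7e-06). Kcnmb1 was 145 and 202 in MEChi and 62.0 and 57.6 in MEClo (1.52 ± 0.19, SE, adjusted p = 6.2e-05). Lower in MEChi were Kcnn3, a small-conductance calcium-activated pore (253 and 259 against 883 and 686, adjusted p = 2.7e-05), Kcnd3 (-1.53 ± 0.18, SE), Kcnq3 (-1.43 ± 0.14, SE), Kcnk2 (-1.24 ± 0.15, SE) and Kcnj15 (-1.15 ± 0.19, SE). The 4 tuft cell markers, all above the median of all values in both groups, summed to 9355 to 9600 in MEClo and 2095 to 2500 in MEChi. The 4 T cell markers, of which 3 exceeded it in CEChi and 2 in MEChi, summed to 2365 to 2928 in CEChi and 556 to 598 in MEChi. The 3 measured hepatocyte markers summed to 2049 to 2137 in MEChi, 168 to 197 in CEChi and 249.7 to 254 in MEClo, and 3, 0 and 1 of them exceeded the median. The 4 dendritic cell markers, of which 2 exceeded it in MEChi and 1 in the others, summed to 2294 to 2706, 339 to 399 and 393 to 457. Of these, Ccr7 alone had group levels of 2095, 149 and 202. Of 18 marker lists, 10 lay at least 2-fold apart between every CEChi and every MEChi array, and 10 between every MEChi and every MEClo array. Their part in these results was not tested.

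In medullary GFP+ cells labelled KO against GFP+ cells without that label, 6 of 25 channel genes were called, against 19.1%. Kcng3 was 759, 678 and 685 in the KO arrays and 283, 433 and 303 in the others (log2 difference 1.08 ± 0.15, SE, adjusted p = 0.00057). Kcnj3 was 690, 805 and 794 against 370, 356 and 400 (1.02 ± 0.14, SE, adjusted p = 0.00052). Kcnj13, an inward rectifier of ion-transporting epithelia, was 50.3, 43.2 and 52.5 against 83.8, 117 and 104 (-1.05 ± 0.15, SE, adjusted p = 0.00045). None of these overlapped. Aire, the regulator that marks mature medullary cells, was 4107 ± 254 in the KO and 4421 ± 799 in the GFP+ arrays (SD, n = 3 each). The labels do not say which gene is knocked out. The 4 fibroblast markers, of which 3 exceeded the median of all values, summed to 3876 to 4104 in the KO and 1918 to 2161 in the GFP+ arrays. The 3 measured hepatocyte markers, of which 1 exceeded it in the KO and 3 in the GFP+ arrays, summed to 271 to 388 and 1381 to 1912. The 4 platelet markers, of which 0 and 3 exceeded it, summed to 266 to 269.7 and 793 to 1025.5. Of the fibroblast list Dcn alone had group levels of 3566 in the KO and 1577 in the GFP+ arrays. The part of these lists in the result was not tested.

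**Figure D4:**
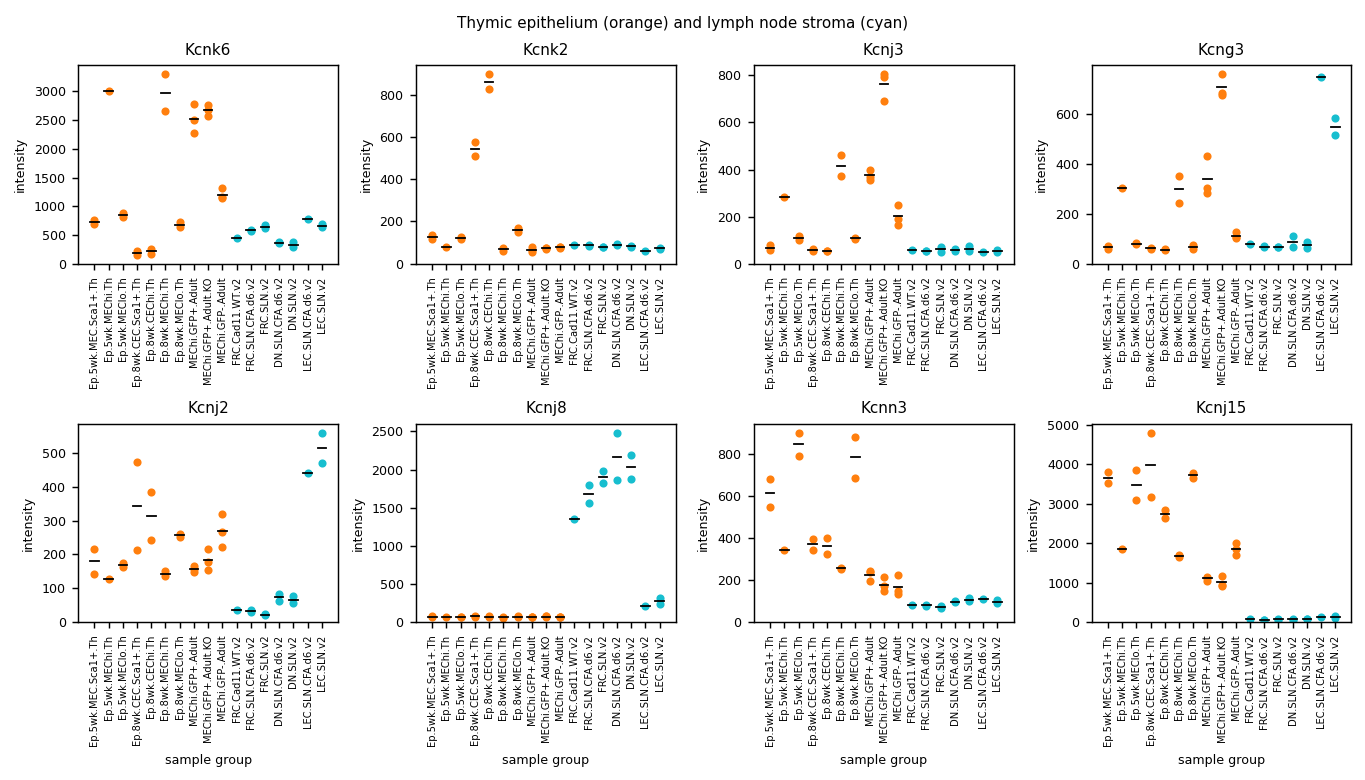
Array intensity (vertical axes, from 0) of 8 channel genes in groups of thymic epithelium (orange) and lymph node stroma (cyan), with points as arrays and bars as means. Kcnk6, Kcnj3 and Kcng3 are high in MEChi, Kcnk2 in the cortical groups, Kcnj8 in FRC and DN stroma, and Kcnj2 and Kcng3 in LEC.

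In lymph node stroma, LEC and FRC had different channel genes. Of 31 tested 15 were called, against 36.3% of all probe sets. Kcnj2, the classical strong inward rectifier, was 472 and 560 in LEC and 23.0 and 21.4 in FRC (log2 difference 4.54 ± 0.20, SE, adjusted p = 3.3e-08). Kcng3 was 515 and 582 against 67.2 and 67.6 (3.02 ± 0.22, SE, adjusted p = 1.3e-06), and Kcnk5 444 and 359 against 75.9 and 77.8 (2.38 ± 0.17, SE, adjusted p = 1e-06). In FRC, Kcne4, an auxiliary subunit that dampens voltage-gated pores, was 786 and 582 against 51.9 and 67.7 in LEC (-3.51 ± 0.29, SE, adjusted p = 2.9e-06). Kcnj8 was 1976 and 1830 against 235 and 313 (-2.81 ± 0.19, SE, adjusted p = 5.8e-07). Kcnma1 was 36.5 and 43.0 in LEC and 456 and 335 in FRC (-3.30 ± 0.22, SE, adjusted p = 5.4e-07). Kcnip3, a calcium-binding partner of Kv4 channels, was 70.1 and 68.6 against 571 and 684 (-3.17 ± 0.23, SE, adjusted p = 1.1e-06). Kcnd1, a Kv4 pore, was 63.6 and 64.2 against 183 and 324 (-1.93 ± 0.26, SE, adjusted p = 0.00014), and Kcng4, a modifier, 78.5 and 72.3 against 179.9 and 207 (-1.36 ± 0.18, SE, adjusted p = 0.00012). For all of these the groups did not overlap. The 4 smooth muscle markers, all above the median of all values, summed to 11835 to 12567 in FRC, 818 to 940 in LEC and 23826 to 24571 in DN stroma. DN stroma had Kcnj8 at 1871 and 2187, Kcnmb1 at 693 and 1844 and Kcnab1 at 329.6 and 347. Kcnt2, a sodium-activated pore, peaked in DN stroma on d6 with CFA in the title, at 132 and 135 against a median group of 18.5. The part of smooth muscle in these values was not tested. Of the calcium entry list 11 of 20 genes tested were called. Endothelial markers summed to 24176 to 25166 in LEC and 782 to 1378 in FRC, and fibroblast markers to 2772 to 3864 and 26196 to 27129.

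Macrophage groups were compared within an organ, and no test compared organs. Alveolar macrophages had 18 of 31 channel genes called against CD11b+ lung macrophages, where 52.9% of all probe sets were called, 6 higher (32.5% of all) and 12 lower (20.4%). Kcnn3 was 2424, 2418 and 2003 against 99.5, 94.6 and 82.3 (log2 difference 4.63 ± 0.12, SE, adjusted p = 6.5e-15). Kcne3, an auxiliary subunit, was 440, 458 and 511 against 56.6, 42.4 and 41.9 (3.33 ± 0.17, SE, adjusted p = 3e-11). Kcna3 was 2532, 2964 and 1782 against 310, 284 and 340 (2.94 ± 0.18, SE, adjusted p = 5.8e-10). Kcnip4, a partner of Kv4 channels, was 170.5, 169.6 and 255 against 33.5, 42.1 and 40.3 (2.34 ± 0.14, SE, adjusted p = 4.9e-10). Kcnh4 was 476, 530.4 and 505 against 156, 165 and 146 (1.70 ± 0.10, SE, adjusted p = 3e-10), and the sixth higher gene was Kcnk5. None of the groups overlapped for the genes with values above.

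On the lower side, Kcnk13, a tandem-pore channel known from macrophages and microglia, was 83.4, 80.6 and 81.8 in alveolar and 399, 458 and 435 in CD11b+ lung macrophages (log2 difference -2.39 ± 0.10, SE, adjusted p = 2.7e-12). Kcnk13 was also 396 to 614 in ctrl and 445 to 628 in Gata6ko peritoneal macrophages and 344 to 476 in fat macrophages. Kcnj10 was lower in alveolar macrophages by 1.42 ± 0.13 and Kcnip3 by 1.24 ± 0.18 on the log2 scale (SE). Of the calcium entry list 8 rose and 6 fell, led upward by Hvcn1, the proton channel (mean 2788 against 732), and Trpv2 (2200 against 623), and downward by P2rx7, an ATP-gated channel (507 against 1900). The 4 platelet markers, of which 0 exceeded the median of all values in alveolar and 2 in CD11b+ cells, summed to 302 to 324 and 11056 to 12157. Of 18 marker lists, 7 lay at least 2-fold apart between every array of the groups, among them lymphatic endothelial (452 to 503 and 6735 to 8201) and neutrophil markers (488 to 599 and 5496 to 5868), lower in alveolar cells, and eosinophil markers (2287 to 3184 and 251 to 321), higher. Their part in the result was not tested.

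Liver macrophages were the peak of Kcna2, Kcnj10 and Kcnj16, whose promoter windows are given above. Kcna2 was 3073, 3455 and 3925 in F480hi and 1146, 1702 and 1592 in F480int cells, which the markers label as F480lo. Its next group in order was MEChi GFP+ KO at 812 to 927, below every liver array, and its median group was 235. The second Kcna2 probe set gave 272, 472 and 446 in F480hi and 167, 206 and 192 in F480int cells, and the 2 sets correlated at r = 0.836 over 65 groups. Since Kcna2 was picked for this level, these are descriptions with no test. Other macrophages had Kcna2 between 146 and 212 in lung, peritoneal cavity and fat. The 5 genes most like Kcna2 over 65 groups were Il18bp (r = 0.729), F2 (0.727), Adam23 (0.7), Dmpk (0.664) and Fgb (0.649), of which F2 and Fgb encode clotting proteins made by hepatocytes.

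Kcnj10 and Kcnj16 encode inward rectifiers that form a joint channel in kidney and glia, and had r = 0.767 over 65 groups. Kcnj16 was 1230, 1712 and 1709 in F480hi and 534, 698.8 and 699.8 in F480int liver macrophages (log2 difference 1.26 ± 0.17, SE, adjusted p = 0.0016). Kcnj10 was 1792, 973 and 1008 against 658, 572 and 584 (1.00 ± 0.22, SE, adjusted p = 0.015). The groups did not overlap for either. Lung, peritoneal and fat macrophages had Kcnj16 between 38.1 and 71.7. Leaving out Kcna2, 5 of 20 channel genes were called between the liver groups, against 20.2% of all probe sets, 3 higher (10.7%) and 2 lower (9.52%). The others were Kcnk13 (0.76 ± 0.18, SE, adjusted p = 0.018), Kcnn4 (-0.68 ± 0.13, SE, adjusted p = 0.0067) and Kcna3 (-0.75 ± 0.10, SE, adjusted p = 0.0013). The calcium entry list had 5 higher and 3 lower.

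The liver arrays also carried markers of other liver cells. The measured hepatocyte markers (3 of 4, all above the median of all values) summed to 5797 to 7067 in F480hi and 5217 to 7047 in F480int arrays, where the median sum over all arrays was 215. Alb alone had group levels of 4829.6 and 4235. The 4 endothelial markers summed to 14350 to 15769 and 19215 to 20390, lower in F480hi arrays. The measured macrophage markers (3 of 4) summed to 12272 to 13386 and 8217 to 9214, higher in F480hi arrays. The 4 mast cell markers, of which 1 exceeded the median of all values, summed to 382 to 391 and 1040.3 to 1114, and Kit alone had group levels of 295 and 916. Which of these cells carried the Kcna2, Kcnj10 and Kcnj16 signal was not tested.

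**Figure D5:**
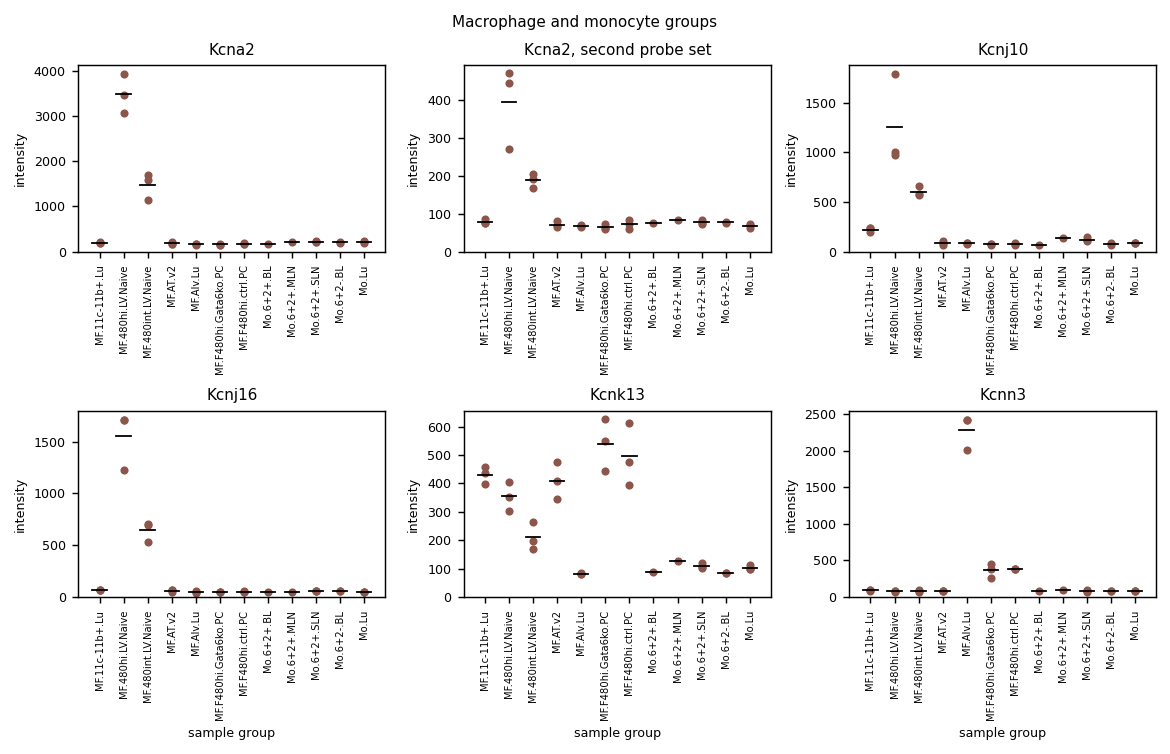
Array intensity (vertical axes, from 0) of Kcna2 by both probe sets and of Kcnj10, Kcnj16, Kcnk13 and Kcnn3 in the macrophage and monocyte groups, with points as arrays and bars as means. Kcna2, Kcnj10 and Kcnj16 are highest in the liver groups, Kcnn3 in alveolar macrophages.

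In peritoneal macrophages labelled Gata6ko 2 of 19 channel genes were called, against 6.69% of all probe sets. Kcnn4 was 829, 710 and 1022 in the arrays labelled Gata6ko and 392, 270 and 278 in ctrl, with no overlap (log2 difference 1.45 ± 0.18, SE, adjusted p = 0.0033). Kcnk6 was 1649, 1617 and 1527 against 978, 956 and 1237 (0.60 ± 0.12, SE, adjusted p = 0.024). The count was 1 when any array labelled Gata6ko or the second ctrl array was left out. The 4 lymphatic endothelial markers, of which 2 exceeded the median of all values, summed to 2489 to 2796 and 416 to 584, and their part in the result was not tested. Of these markers Lyve1 alone had group levels of 2356 and 176.

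Kcne3, an auxiliary subunit that holds Kcnq1 channels open in epithelia, was 2458 to 2799 in the 4 peritoneal arrays, 2584, 2683 and 2583 in skin, and 3607 and 3265 in the single digested peritoneal array and the single array titled MC.To. Its median group was 46.5, below the median of all values, and the next group after the mast cells, blood Ly6C+ MHCII+ monocytes, had 538. Kcnq1 itself was 834 to 1782 in peritoneal and 1738, 1671 and 1798 in skin mast cells, and the pair had r = 0.661 over 65 groups. Between skin and peritoneal mast cells 2 of 25 channel genes were called, against 30.3% of all probe sets. Kcnk6 was 281, 267 and 287 in skin and 530, 720, 499 and 588 in peritoneal arrays (log2 difference -1.06 ± 0.16, SE, adjusted p = 0.00041), and Kcnab2 was lower in skin by 0.76 ± 0.20 on the log2 scale (SE, adjusted p = 0.013). The labels give blood as the source of 2 of the 4 peritoneal arrays. Without these, 5 genes were called. Without peritoneal replicate 5 alone, 5 were called, and 1 without skin replicate 3. The 4 endothelial markers, of which 0 exceeded the median of all values in skin and 1 in peritoneal arrays, summed to 386 to 410 and 1234 to 1719, and their part in the result was not tested. Of these markers Pecam1 alone had group levels of 96.8 and 1162.

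Between blood eosinophils and neutrophils 5 of 25 channel genes were called, against 35.4%. Kcnj2 was 56.3, 57.5 and 58.1 in eosinophils and 874, 808, 1069 and 991 in neutrophils (log2 difference -4.02 ± 0.15, SE, adjusted p = 1.3e-07). Kcnab2 was 737, 608 and 780 against 316, 242, 223 and 244 (1.47 ± 0.17, SE, adjusted p = 0.00015). Neither overlapped. Kcnk6 (0.85 ± 0.16, SE) and Kcnk1 (0.45 ± 0.16, SE) were also higher and Kcnj8 lower (-0.52 ± 0.16, SE) in eosinophils. The count was 3 without neutrophil replicate 4 or 7. The neutrophil markers (4 of 4, all above the median of all values in both) summed to 3833 to 7701 in eosinophil and 42901 to 44574 in neutrophil arrays, and their part in the result was not tested.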

How the data were processed

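The arrays were labelled with an Affymetrix whole-transcript kit from TriZol extracts, per the labels' protocols. The authors deposited linear intensity values, processed with RMA in Affymetrix Power Tools per the submitters' processing notes, with versions not given in the sources used here. Their log2 was taken here. Probe sets were named from the platform annotation: 21425 carry 1 symbol, 1399 several and 2098 none, and only those with 1 were used. Groups were read from the sample titles. Each of 24 comparisons came from 1 of 14 fits with limma 3.58.1 in R 4.3.3, with 1 mean per group. The groups compared held 96 arrays in 38 groups. Several fits also took in groups that were not compared, such as the 96 h T cells and the stroma with CFA in the title. These groups entered the spread, the filter and the set of probe sets adjusted over in their fit. A probe set was tested if at least 1 group mean was no lower than the median value of its fit, the Benjamini-Hochberg adjustment ran across every probe set tested, and calls were made under 0.05. A gene that is dim elsewhere can thus be tested only through a group where it is high. The filter favours such genes, and their p-values take no account of it. The text names channel genes with a 4-fold peak, called genes with a 2-fold difference whose groups do not overlap (up to 6 per direction), Kcnma1, Kcna2, Kcna3, Kcnn4, Kcnk5, Kcnab2, the genes in group labels, the 5 genes most like Kcnma1 and Kcna2, and up to 4 called calcium entry genes per comparison. Other called genes named singly were chosen after their values were seen. Alternatives were no filter, the 75th percentile as filter, quantile normalization, log2 of intensity plus 32, all arrays in 1 fit, a replicate block and leaving out each array. The fit was also run on simulated data for some comparisons, with independent noise and changes only in genes brighter than the median of all values. The outcome is not given here, and the simulation does not bear on dim genes. The channel genes, the calcium entry list and the marker lists were chosen with earlier results of these data known. The motifs and the promoters shown were chosen after the values were seen. No arrays were identical.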

Additional observations from a re-analysis of the deposited data

Results flagged for a closer look

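The other probe set of Kcnma1 is outside the measurement used for that gene and stood far above its level elsewhere in 3 groups: 6927 in T.8Eff.Tbet-, 5712 in KLRG1- CD127+ and 4437 in KLRG1+ CD127- cells, where the other 137 arrays lay between 23.3 and 128. All 8 of these arrays were sorted as CD45.1+.

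Single arrays that enter no comparison also stood out. The basophil array had Kcnj2 at 1596, above every other group (at most 930 as a group level), Kcnq5 at 786 (others at most 535) and Kcnj16 at 289, below the liver macrophage groups only. The FRC array from a mixed C57BL/6J and 129SJL background, labelled Cadherin 11 WT, had Kcne4 at 1033 (other groups at most 701), Kcnj8 at 1350 and Kcnma1 at 394, values set beside the FRC groups in the heatmap.

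Of 62 pairs of a channel gene and a group of 4 or more arrays, 5 had 1 array flagged as apart from the others, where chance alone flags about 1 in 20. The pairs do not cover all 91 channel genes. All 5 flagged values lay below the median of all array values, 126, and some differences were small. Peritoneal mast cell replicate 5 was high for Kcnj10 at 116.8 (others 78.7 to 81.4), Kcnj13 at 87.8 (65.4 to 68.8), Kcnk2 at 105.3 (72.5 to 74.0) and Kcnmb1 at 78.7 (57.1 to 60.7). Its source label is blood. Neutrophil replicate 7 had Kcnk2 at 74.9 (71.2 to 71.7).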

How the results depend on the processing

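Signs were followed for called genes with a 2-fold difference and no overlap, and for Kcna2, Kcna3, Kcnn4, Kcnk5 and Kcnab2. Where such a gene was called in the main fit or under the alternative, its sign did not change. Other called genes below a 2-fold difference were not followed in this way. Kcnma1 in Tbet- against Tbet+ cells had a log2 difference of -0.04 ± 0.11 (SE) by the chosen probe set, within its error of none. By its other probe set the difference was 7.63. That alternative was chosen after seeing the data. Among values of the genes followed, 1597 kept their side of the threshold, 18 passed it only under the alternative and 64 no longer did. Counts of channel genes called depended most on the filter. Without a filter all 91 were tested, in place of 28 in the CD4 comparisons, 36 in the epithelial pairs and 25 in the GFP+ KO. The counts were then 21 for CD4 24 h, 14 for CD4 48 h, 38 for CEChi against MEChi, 27 for MEChi against MEClo and 23 for the GFP+ KO. The share of all probe sets called under these alternatives is not given here, so the counts cannot be set beside it. With the 75th percentile, under which fewer genes are tested, they were 2 for CD4 24 h, CD4 48 h, CD8 24 h, CD4 effectors, DP69+ and Vg4 cells, 4 for CD8 5 h, 0 for CD8 48 h, 3 for Tbet-, the KO, liver (Kcna2 included, 6 with the usual filter) and eosinophils, 12 and 10 for the epithelial pairs, 9 for LEC and 7 for alveolar macrophages. With all arrays in 1 fit 69 channel genes passed the filter in every comparison. The counts were then 2 for CD4 5 h and KLRG1+, 4 for CD8 5 h and DP69+, 21 for the KO, 5 for Gata6ko, 8 for mast cells and 19 for eosinophils, and the cause was not tested. Quantile normalization gave 4 for CD8 48 h and 2 for CD4 memory. It moved the share of higher calls over all probe sets from 31.7% to 43.0% for CD4 1 h, 34.6% to 45.0% for CD8 1 h, 60.1% to 49.4% for CD8 48 h, 28.5% to 42.9% for CD4 memory, 72.4% to 59.5% for Gata6ko and 38.5% to 49.7% for eosinophils. The offset moved no count by over 1.5 times. Without the peritoneal mast arrays of blood source 5 were called.

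Leaving out each array in turn gave 3 to 4 for CD4 1 h, 1 to 4 for CD4 5 h, 7 to 11 for CD4 24 h, 1 to 4 for CD4 48 h, 2 for CD8 1 h, 4 to 6 for CD8 5 h, 5 to 8 for CD8 24 h, 2 to 3 for CD8 48 h, 4 to 8 for CD4 effectors, 3 to 5 for Tbet-, 4 to 7 for DP69+, 3 to 7 for Vg4, 1 to 2 for Gata6ko, 1 to 5 for mast cells and 3 to 7 for eosinophils. Where a group keeps 1 array, the fit takes its spread from the remaining groups. At 2-fold in place of 4-fold 53 of the 91 channel genes had a peak, and 31 of 91 reached the 75th percentile of all values. The same shares were not counted over all genes, so these counts say nothing particular about the family.

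Groups share replicate numbers in their titles, but no label ties same-numbered arrays together. In no comparison with 3 shared numbers did every same-numbered pair correlate above 0.1. In the stimulation comparisons, with 2 shared numbers, both pairs give the same r. It was 0.548, 0.292, 0.575 and 0.129 in CD8 cells at 1, 5, 24 and 48 h. In CD4 cells it was 0.236, 0.289, -0.0117 and 0.228. The main fits took no account of such pairs. With the replicate number as a block, 4 channel genes were called for CD8 48 h and 3 for CD4 memory, and the other 18 counts stayed within 1.5 times. No paired analysis was possible for CD4 effectors, the KO, mast cells and eosinophils because these groups share fewer than 2 numbers.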
